A study of Homo sapiens with 20 samples.

Results

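The 8 genes described here, HMGCS1, IDI1, FDFT1, SQLE, LSS, DHCR7, SREBF2 and INSIG1, are SREBF2 itself, which encodes the transcription factor SREBP2, and 7 of its classical targets in cholesterol synthesis and sterol sensing. They were chosen by gene symbol, and each had 1 of the 26485 gene rows in both deposited tables. All 8 passed the filter on low values, a mean over the 20 libraries of at least 0.5 RPM (reads per 1000000 reads in gene rows), as did 15958 genes in all. The question was whether these genes were lower once p53 had been activated for 3 hours, since p53 is reported to restrain SREBP2.

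The RNA came from nuclei of wild type HCT116 cells, a colorectal carcinoma line, and was sequenced after depletion of ribosomal RNA with a directional kit. All cells were electroporated and then kept for 3 hours in medium with 0.1% DMSO, a solvent that every condition therefore shares. The 4 conditions were Nutlin-3a with peptide, Nutlin-3a with water, DMSO with peptide and DMSO with water. Nutlin-3a, given at 10 µM, keeps the ubiquitin ligase MDM2 off p53 and so stabilises it, and the stapled peptide is meant to keep p53 from binding the coactivator complex Mediator. The peptide was electroporated at 10 µM and added to the medium at 200 nM, and water was electroporated in its place. Each condition had 2 libraries in experiment 1 and 3 in experiment 2. The labels do not say whether replicates were separate cultures, so the p-values measure only the spread between these libraries, which may be technical. In bulk RNA, fewer cells that express a gene and less of its RNA per cell cannot be told apart.

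SREBP2 is made as a membrane protein of the endoplasmic reticulum, where its partner SCAP senses sterols and INSIG1 holds the complex back. When membrane cholesterol is low, the complex moves to the Golgi, proteases release the part of SREBP2 that enters the nucleus, and this binds sterol regulatory elements, often beside CCAAT boxes, in front of the genes of the pathway. HMGCS1 and IDI1 act on the way to the isoprenoid precursors, FDFT1 makes squalene, SQLE and LSS turn it into lanosterol, and DHCR7 carries out a late reduction on the way to cholesterol. Because INSIG1 is a target as well as a brake, the pathway feeds back on itself.

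The promoters of SREBF2, INSIG1 and HMGCS1 are shown because they hold, or lack, the letters through which SREBP2 and p53 are known to act. RefSeq windows on GRCh38.p14, each from 250 bases before to 50 bases after a start site, were found for 6 of the 8 genes, 10 windows in all. The window of SREBF2 lies at chr22:41832855-41833154 on the plus strand, that of INSIG1 at chr7:155297628-155297927 on the plus strand, and that of HMGCS1 at chr5:43313363-43313662 on the minus strand. Capitals mark the sterol element core TCACNCCAC, the CCAAT box (read as ATTGG on the other strand) and a p53 half-site.
SREBF2: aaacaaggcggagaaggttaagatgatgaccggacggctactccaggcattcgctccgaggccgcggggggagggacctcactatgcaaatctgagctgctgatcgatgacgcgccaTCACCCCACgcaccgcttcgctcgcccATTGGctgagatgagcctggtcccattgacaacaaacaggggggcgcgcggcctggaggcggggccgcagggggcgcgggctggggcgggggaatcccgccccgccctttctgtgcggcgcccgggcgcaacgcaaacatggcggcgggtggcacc
INSIG1: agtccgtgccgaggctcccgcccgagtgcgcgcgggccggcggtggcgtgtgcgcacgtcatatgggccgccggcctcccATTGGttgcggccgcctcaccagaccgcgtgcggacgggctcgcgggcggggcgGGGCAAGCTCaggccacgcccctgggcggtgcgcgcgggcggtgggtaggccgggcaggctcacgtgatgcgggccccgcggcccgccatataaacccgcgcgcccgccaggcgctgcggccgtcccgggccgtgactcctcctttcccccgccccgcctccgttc
HMGCS1: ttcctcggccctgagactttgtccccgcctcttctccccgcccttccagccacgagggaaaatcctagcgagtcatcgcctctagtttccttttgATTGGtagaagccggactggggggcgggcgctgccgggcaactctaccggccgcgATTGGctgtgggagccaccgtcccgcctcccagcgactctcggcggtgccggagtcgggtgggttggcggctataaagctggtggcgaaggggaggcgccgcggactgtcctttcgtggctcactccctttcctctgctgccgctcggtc
The sterol element core stood in 1 of the 10 windows, that of SREBF2, against 1.13% of all 35116 windows of this length, both strands read. CCAAT boxes stood in 7 of the 10 windows and in at least 1 window of each of the 6 genes, against 34.6% of all windows. The GC box GGGCGG stood in 9 of the 10, against 45.0%, and a p53 half-site in 1 of the 10, that of INSIG1, against 6.63%. In INSIG1 the last base of a GC box is the first base of the p53 half-site. A match or its absence is a description of these letters only.

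MIR33A, a microRNA gene in an intron of SREBF2 on the same strand (chr22:41900944-41901012), has a row of its own. Its mature product represses the cholesterol exporter gene ABCA1 and is shown for its seed, bases 2 to 8, in capitals.
hsa-miR-33a-5p: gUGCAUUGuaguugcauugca

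Experiment 1 had 36717795 to 63896604 reads in gene rows per library, and experiment 2 had 18787172 to 47407746. All values below are RPM scaled between libraries by a trimmed mean, over the whole span of a row with its introns. Epithelial markers were abundant, with means of 239 RPM for EPCAM and 1386 RPM for KRT8, while the leukocyte marker PTPRC had 0.0264 RPM and the collagen gene COL1A2 0.000934 RPM. In experiment 1, replicate 2 of Nutlin-3a with water stood apart, since its 10 most abundant rows took 43.5% of its reads, against 25.1 to 30.4% in the other 7 libraries of that experiment. Libraries of an experiment with the same replicate number resembled each other, so a second fit of the same model took the 5 numbers as blocks. As a check of the treatment, CDKN1A, the p53 target that encodes p21, had 119.9, 177, 88.4, 102 and 49.3 RPM with Nutlin-3a and water, against 37.1, 38.5, 62.7, 44.8 and 40.2 RPM with DMSO and water. It was higher in 5 of 5 pairs of same-numbered libraries, as were 2.87% of all genes, with a log2 change of 1.16 ± 0.29 (SE, n = 5 per group, limma adjusted p = 1 over all genes, and 0.0826 with the replicate block), or 1.93 in experiment 1 and 0.65 in experiment 2.

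Nutlin-3a without peptide did not shift the 8 genes in 1 direction. Their median log2 change was 0.03, with 4 above 0 and 4 below, against a median of -0.03 over all genes tested. The early enzymes IDI1 (-0.20) and HMGCS1 (-0.13) had the lowest values, and DHCR7 (0.24) and INSIG1 (0.22) the highest. Without the library that stood apart the median was 0.06, with 5 above 0 and 3 below, against -0.01 over all genes. None of the 8 was called, with limma adjusted p = 1 for each, where a call is an adjusted p under 0.05 and 0.0% of the 15958 genes were called. At an unadjusted p under 0.05 there were 0 of the 8, against 100 genes or 0.627% of all. With the replicate block 0 genes were called again (0.0%), and at an unadjusted p under 0.05 there was 1 of the 8, DHCR7, against 1219 genes or 7.64% of all.

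Of the regulators, SREBF2 had 146 and 211 RPM in experiment 1 and 158, 215 and 224 RPM in experiment 2 with Nutlin-3a, against 144 and 148 RPM and 162, 197 and 232 RPM with DMSO. Apart from the 211 RPM, which came from the library that stood apart, the values with Nutlin-3a lay within the range of those with DMSO or, at 158 RPM, just under it. The log2 change was 0.11 ± 0.15 (SE, n = 5 per group), and 0.03 ± 0.06 with the replicate block and that library left out. INSIG1 had 6.76 and 11.7 RPM in experiment 1 and 12.3, 20.3 and 17.2 RPM in experiment 2 with Nutlin-3a, against 6.64 and 7.12 RPM and 12.4, 15.9 and 16.4 RPM with DMSO. The groups overlapped in experiment 2, and the highest value of experiment 1 was again in the library that stood apart. The change of INSIG1 was 0.22 ± 0.19, and 0.11 ± 0.11 with the replicate block and without that library.

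Of the early enzymes, HMGCS1, which joins acetyl-CoA and acetoacetyl-CoA into HMG-CoA, had 55.3 and 25.6 RPM in experiment 1 and 80.3, 120.1 and 207 RPM in experiment 2 with Nutlin-3a. With DMSO it had 50.8 and 48.8 RPM and 71.1, 128 and 201 RPM. The groups overlapped in experiment 2, and the single low value, 25.6 RPM, was in the library that stood apart. IDI1, the isomerase that readies the isoprenoid building blocks, had 19.3 and 10.0 RPM in experiment 1 and 75.3, 67.5 and 119 RPM in experiment 2 with Nutlin-3a, against 19.7 and 17.7 RPM and 70.4, 78.5 and 127 RPM with DMSO. Its low value was in the same library, and otherwise the groups lay together. With the replicate block and without that library the changes were 0.08 ± 0.08 for HMGCS1 and -0.04 ± 0.08 for IDI1 (SE, limma adjusted p = 0.684 and 0.853), so the negative value of HMGCS1 rested on it.

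FDFT1, squalene synthase, had 39.1 and 38.9 RPM in experiment 1 and 38.1, 66.6 and 76.2 RPM in experiment 2 with Nutlin-3a, against 35.5 and 35.0 RPM and 41.6, 82.3 and 82.5 RPM with DMSO. Its values were thus above those with DMSO in both pairs of experiment 1 and below them in all 3 pairs of experiment 2. The log2 change was 0.14 in experiment 1 and -0.18 in experiment 2, and the difference between the experiments was not called (limma adjusted p = 1). SQLE, the epoxidase that acts next, had 37.8 and 30.0 RPM in experiment 1 and 33.3, 96.1 and 0.305 RPM in experiment 2 with Nutlin-3a, against 37.4 and 36.7 RPM and 23.3, 78.6 and 0.687 RPM with DMSO. Replicate 3 was near 0 in both groups, and the others overlapped. The change was -0.01 ± 1.40 with the experiment term (95% interval -2.94 to 2.92) and -0.01 ± 0.13 with the replicate block (95% interval -0.29 to 0.27). With the block and without the library that stood apart, whose 30.0 RPM was its lowest value of experiment 1, the change was 0.08 ± 0.13.

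Of the sterol enzymes, LSS, which closes the ring to lanosterol, had 49.0 and 75.6 RPM in experiment 1 and 40.4, 55.3 and 61.5 RPM in experiment 2 with Nutlin-3a, against 53.9 and 54.5 RPM and 41.1, 51.7 and 62.2 RPM with DMSO. It was lower with Nutlin-3a in 3 of 5 pairs, and its highest value was in the library that stood apart. DHCR7 had 44.1 and 72.2 RPM in experiment 1 and 66.9, 113 and 142 RPM in experiment 2 with Nutlin-3a, against 40.1 and 46.0 RPM and 67.0, 91.4 and 129 RPM with DMSO. DHCR7 was higher in 4 of 5 pairs. Its log2 change was 0.24 ± 0.25 (SE, limma unadjusted p = 0.348), and with the replicate block 0.24 ± 0.09 (unadjusted p = 0.0146, adjusted p = 0.649). With the block and without the library that stood apart it was 0.16 ± 0.07 (limma unadjusted p = 0.0354, adjusted p = 0.333).

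**Figure D1:**
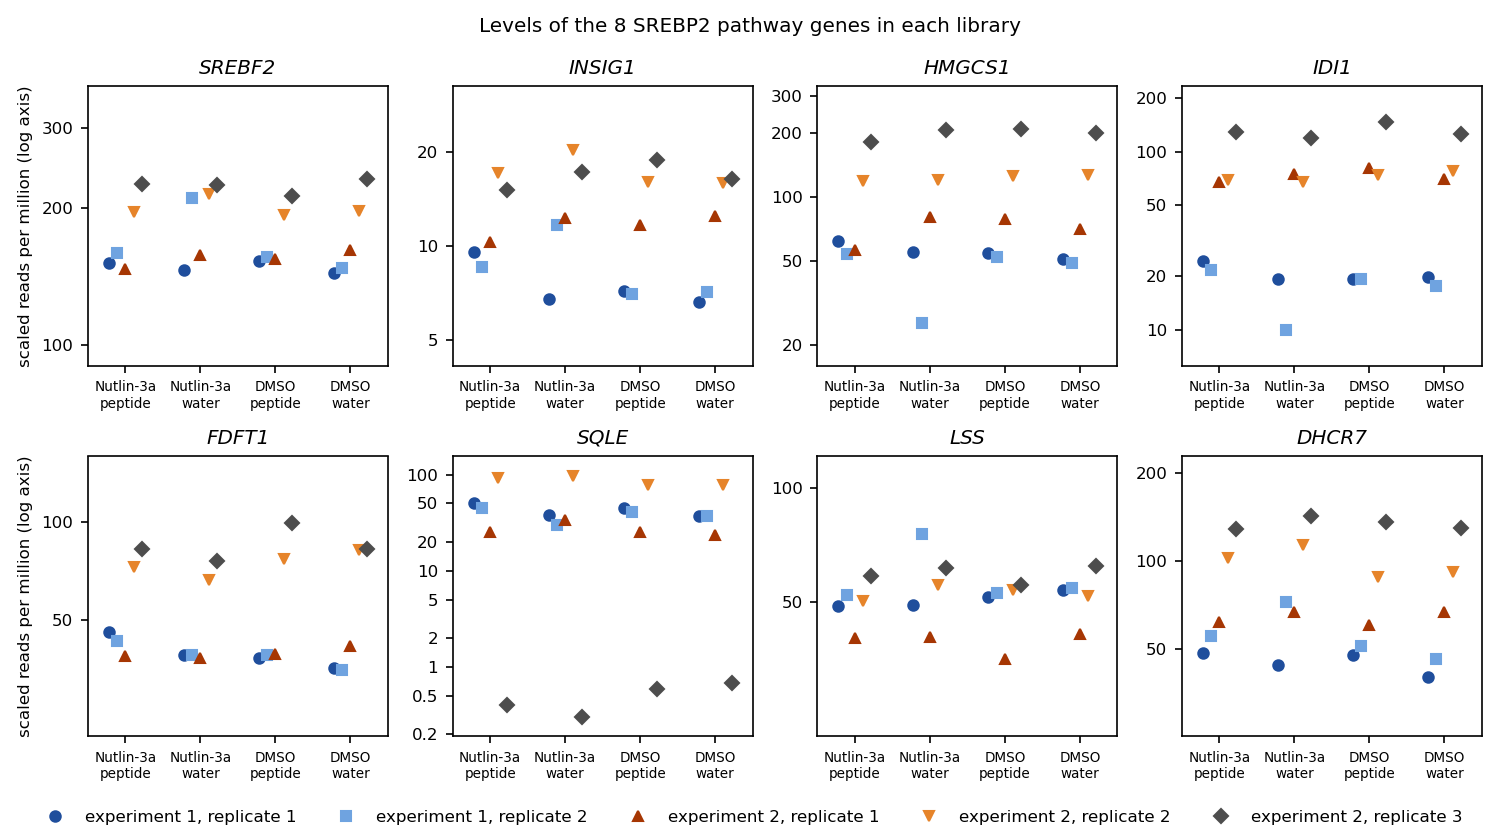
Scaled RPM of the 8 genes in each of the 20 libraries, on log axes that differ between panels, with 1 symbol for each experiment and replicate number. The symbols of 1 kind run nearly level across the conditions, except for replicate 2 of experiment 1, which departs in Nutlin-3a with water for most genes. There HMGCS1 had 25.6 RPM, against 48.8 to 54.1 RPM in the other conditions. Replicates of experiment 2 lie apart, with SQLE at 0.305 to 0.687 RPM in all 4 libraries of replicate 3.

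The library that stood apart touched 7 of the 8 genes, with HMGCS1, IDI1 and SQLE at the low end and SREBF2, INSIG1, LSS and DHCR7 at the high end of experiment 1. Its pair differences were -0.92 for HMGCS1, -0.79 for IDI1, -0.29 for SQLE, 0.51 for SREBF2, 0.68 for INSIG1, 0.47 for LSS and 0.64 for DHCR7, on the log2 scale. In the other 4 pairs HMGCS1 lay between -0.09 and 0.17, IDI1 between -0.22 and 0.10, SREBF2 between -0.05 and 0.13 and LSS between -0.14 and 0.10. INSIG1 was higher with Nutlin-3a in 3 of those 4 pairs, as was DHCR7. The part of that library in the pattern was measured only by leaving it out.

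**Figure D2:**
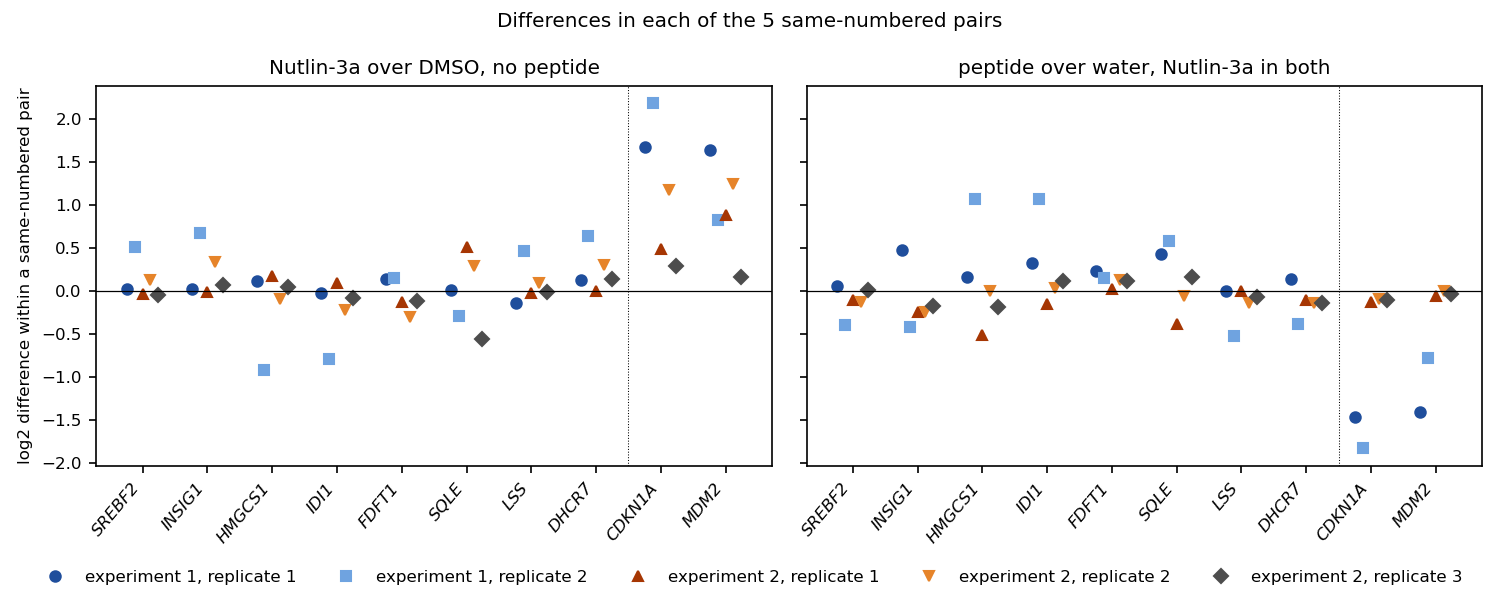
Log2 difference within each of the 5 same-numbered pairs (pseudocount 0.5 RPM) for the 8 genes and, right of the dotted line, the p53 targets CDKN1A and MDM2. The points of the 8 genes lie on both sides of 0 except for FDFT1 (above) and LSS (below) in the right panel, while CDKN1A and MDM2 are above 0 in 5 of 5 pairs on the left. On the right they lie between -1.83 and -0.78 in experiment 1, but between -0.13 and -0.00 in experiment 2.

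Nutlin-3a in cells that had received peptide likewise left the 8 genes near 0. The median log2 change was 0.01, with 6 above 0 and 2 below, against -0.01 over all genes tested, and the values ran from -0.11 for HMGCS1 to 0.07 for DHCR7. None was called (limma adjusted p = 1 for each, 0.0% of all genes called), and at an unadjusted p under 0.05 there were 0 of the 8 in either fit, against 0.163% of all genes with the experiment term and 1.83% with the replicate block. SREBF2 had 152 and 159.6 RPM in experiment 1 and 147, 196 and 227 RPM in experiment 2 with Nutlin-3a and peptide, against 153 and 156 RPM and 155, 193 and 213 RPM with DMSO and peptide. Its groups overlapped in both experiments, and with the replicate block the change was 0.01 ± 0.08 (95% interval -0.16 to 0.18). HMGCS1 had 62.1 and 54.1 RPM and 56.3, 119.8 and 182 RPM with Nutlin-3a and peptide, against 54.6 and 52.4 RPM and 78.5, 126 and 209 RPM with DMSO and peptide. HMGCS1 was thus higher in both pairs of experiment 1 and lower in the 3 pairs of experiment 2, as were IDI1 and FDFT1, and none of these differences between experiments was called (limma adjusted p = 1).

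Peptide in the presence of Nutlin-3a, the comparison that asks whether the peptide undoes what p53 does, gave a median log2 change of -0.00 over the 8 genes, with 4 above 0 and 4 below, against 0.04 over all genes. IDI1 was highest at 0.28 ± 0.25 (SE, n = 5 per group) and LSS lowest at -0.15 ± 0.17. None was called (limma adjusted p = 1 for each, 0.0% of all genes), and none of the 8 had an unadjusted p under 0.05, against 77 genes or 0.483%. With the replicate block 0.0% of genes were called, and at an unadjusted p under 0.05 there was 1 of the 8, IDI1, against 1300 genes or 8.15%. The change of IDI1 in that fit was 0.28 ± 0.13 (limma unadjusted p = 0.0418, adjusted p = 0.602). This comparison shares its Nutlin-3a and water libraries with the first one, the library that stood apart among them. Without that library the median of the 8 was -0.02, with 3 above 0 and 5 below, against 0.01 over all genes.

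The p53 targets differed between the experiments in this comparison. CDKN1A had a log2 change of -1.65 in experiment 1 and -0.11 in experiment 2 with peptide and Nutlin-3a against water and Nutlin-3a, and the difference between the experiments had an unadjusted p of 0.00518 (limma, adjusted p = 1). MDM2, the p53 target whose product Nutlin-3a binds, had -1.10 and -0.03 (limma unadjusted p = 0.378 for the difference). Both were thus near 0 in experiment 2.

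IDI1 had 24.4 and 21.5 RPM in experiment 1 and 67.6, 69.4 and 129 RPM in experiment 2 with peptide and Nutlin-3a, against 19.3 and 10.0 RPM and 75.3, 67.5 and 119 RPM with water and Nutlin-3a. The groups overlapped in experiment 2, and with the replicate block and without the library that stood apart the change was 0.11 ± 0.08 (limma adjusted p = 0.588). FDFT1 had 45.9 and 43.1 RPM and 38.6, 72.6 and 82.6 RPM with peptide and Nutlin-3a, against 39.1 and 38.9 RPM and 38.1, 66.6 and 76.2 RPM with water and Nutlin-3a. It was higher in 5 of 5 pairs, by 0.02 to 0.23 on the log2 scale, as were 4.86% of all genes. LSS had 48.9 and 52.3 RPM and 40.3, 50.1 and 58.7 RPM with peptide and Nutlin-3a, against 49.0 and 75.6 RPM and 40.4, 55.3 and 61.5 RPM with water and Nutlin-3a. It was lower in 5 of 5 pairs, as were 2.53% of all genes, but by less than 0.01 on the log2 scale in replicate 1 of each experiment. With the replicate block the change was 0.13 ± 0.09 for FDFT1 and -0.15 ± 0.09 for LSS (SE, limma adjusted p = 0.644 and 0.605), and without the library that stood apart as well it was -0.06 ± 0.06 for LSS.

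SQLE had 51.2 and 44.9 RPM in experiment 1 and 25.5, 92.6 and 0.405 RPM in experiment 2 with peptide and Nutlin-3a, against 37.8 and 30.0 RPM and 33.3, 96.1 and 0.305 RPM with water and Nutlin-3a. SQLE was thus higher with peptide in both pairs of experiment 1 and lower in 2 of the 3 pairs of experiment 2. HMGCS1 averaged 58.1 ± 5.64 RPM in experiment 1 and 119 ± 62.7 RPM in experiment 2 with peptide and Nutlin-3a, against 40.5 ± 21.0 RPM and 136 ± 64.8 RPM with water and Nutlin-3a (SD, n = 2 and 3). Its log2 change of 0.11 turned to -0.11 ± 0.08 (SE) with the replicate block and without the library that stood apart. SREBF2 averaged 156 ± 5.73 RPM and 190.0 ± 40.2 RPM with peptide and Nutlin-3a, against 179 ± 45.9 RPM and 199 ± 36.1 RPM with water and Nutlin-3a. INSIG1 and DHCR7, lower with peptide in 4 of 5 pairs each, had changes of -0.12 ± 0.19 and -0.13 ± 0.25, and without that library they were -0.02 ± 0.11 and -0.05 ± 0.07 with the replicate block.

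Peptide in the absence of Nutlin-3a had a median log2 change of 0.06 over the 8 genes, with 6 above 0 and 2 below, against 0.02 over all genes. The values ran from -0.09 for LSS to 0.08 for IDI1. None was called (limma adjusted p = 1 for each, 0.0% of all genes), and 0 of the 8 had an unadjusted p under 0.05 in either fit, against 0.1% and 1.05% of all genes. SREBF2 averaged 155 ± 2.40 RPM in experiment 1 and 187 ± 29.5 RPM in experiment 2 with peptide and DMSO, against 146 ± 2.33 RPM and 197 ± 35.0 RPM with water and DMSO (SD, n = 2 and 3). The direction differed between the experiments, and the change was -0.01 ± 0.08 with the replicate block. FDFT1 averaged 38.5 ± 0.566 RPM and 72.0 ± 30.5 RPM with peptide and DMSO, against 35.3 ± 0.332 RPM and 68.8 ± 23.6 RPM with water and DMSO. Its change over both experiments was 0.07 ± 0.26. LSS was lower with peptide in 4 of 5 pairs and HMGCS1 higher in 4 of 5, with pair differences between -0.21 and 0.06 for LSS and between -0.02 and 0.14 for HMGCS1.

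The test of whether Nutlin-3a acted differently with and without peptide gave values from -0.18 for DHCR7 to 0.19 for IDI1, and none was called (limma adjusted p = 1 for each in both fits). Of all genes 0.0% were called in either fit. At an unadjusted p under 0.05 there were 0 of the 8, against 0.163% of genes, and against 1.8% with the replicate block. Without the library that stood apart DHCR7 and IDI1 had -0.07 and 0.01, and the 8 genes ran from -0.20 for HMGCS1 to 0.07 for FDFT1. Exact permutation of the libraries within experiments, two-sided and with 120 arrangements, gave p = 0.3 to 0.983 for the 8 genes under Nutlin-3a without peptide. Over the 4 pairwise comparisons 0 of 32 such p-values were under 0.05, and the smallest that the design allows is 0.0167.

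**Figure D3:**
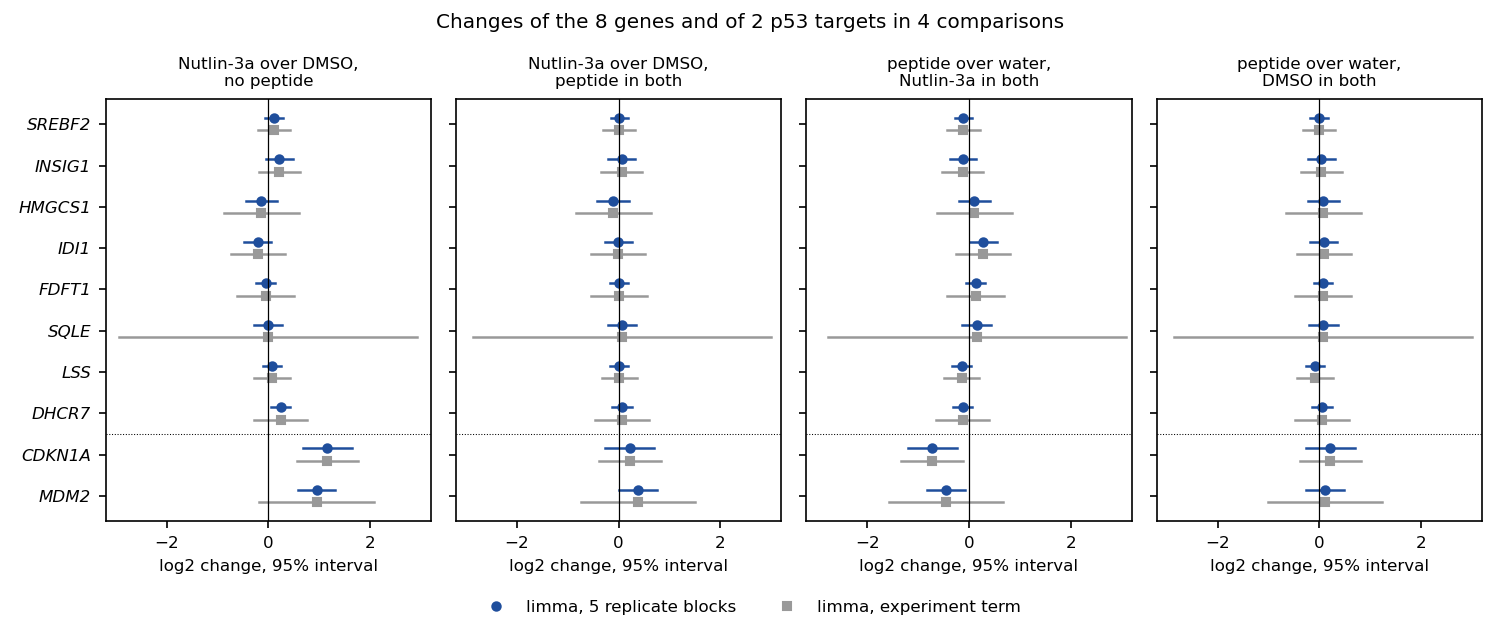
Log2 change and 95% interval of the 8 genes and, below the dotted line, of CDKN1A and MDM2 in the 4 pairwise comparisons, from limma with the replicate numbers as blocks (circles) and with the experiment term (squares). The intervals of the 8 genes include 0 except for DHCR7 in the first panel and IDI1 in the third, with the replicate block only, and that of SQLE spans -2.94 to 2.92 in the first panel with the experiment term.

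The lower bounds of the 95% intervals for Nutlin-3a without peptide are given first with the replicate block. They rest on pairs taken from the data and on a spread that may be technical, so they do not exclude larger falls. The intervals reached down to -0.06 for SREBF2, -0.04 for INSIG1 and -0.10 for LSS, and that of DHCR7 began at 0.05. For FDFT1 the lower bound was -0.24, for SQLE -0.29, for HMGCS1 -0.45 and for IDI1 -0.47, the last pair being among the genes that were low in the library that stood apart. With that library left out the bounds were -0.10 for HMGCS1, -0.21 for IDI1, -0.19 for SQLE and -0.25 for FDFT1. Those of the genes that were high in it moved down, to -0.12 for INSIG1, -0.09 for SREBF2 and -0.14 for LSS, and the interval of DHCR7 then began at 0.01. With the experiment term alone, where replicate numbers add to the spread, they were -0.20 for SREBF2 and -0.88 for HMGCS1.

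Within experiment 2, levels differed more between the replicate numbers than between conditions. Replicate 3 was 1.44-fold (SREBF2) to 2.79-fold (HMGCS1) above replicate 1 for the 7 genes other than SQLE. The largest fitted fold between conditions over both experiments was 1.21, for IDI1. In experiment 1 alone IDI1 reached a log2 change of 0.70 for peptide with Nutlin-3a, the library that stood apart included. In experiment 2 alone the largest log2 change of the 8 was -0.25, for HMGCS1 under Nutlin-3a with peptide. HMGCS1 averaged 199.7 ± 12.6 RPM over the 4 libraries of replicate 3, 123 ± 4.22 RPM in replicate 2 and 71.6 ± 10.9 RPM in replicate 1 (SD over the 4 conditions), and no library of 1 number reached those of another. DHCR7 averaged 134 ± 6.32, 98.4 ± 11.4 and 63.9 ± 3.53 RPM in the same order, and SREBF2 224 ± 8.01, 200.4 ± 9.89 and 155 ± 6.36 RPM. IDI1 was apart in replicate 3 alone, with 130.5 ± 11.7 RPM against 72.4 ± 4.95 and 73.6 ± 5.89 RPM. LSS averaged 59.5 ± 3.08, 52.8 ± 2.27 and 39.3 ± 2.63 RPM in replicates 3, 2 and 1, and FDFT1 85.3 ± 10.1, 74.6 ± 6.68 and 39.4 ± 1.53 RPM. INSIG1 had 16.9 ± 1.54, 17.3 ± 2.05 and 11.7 ± 0.989 RPM, so that replicate 1 was lowest for each of the 7 but IDI1. Likeness by number was not particular to the 8 genes. Over all genes tested, deviations from condition means correlated at 0.877 to 0.940 between same-numbered libraries of experiment 2. The share of genes whose replicate numbers do not overlap was not counted. The labels give no batch for these numbers, and what sets them apart was not tested.

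SQLE went another way. It had 0.305 to 0.687 RPM in the 4 libraries of replicate 3 of experiment 2, from 16 to 33 reads each, against 77.2 to 96.1 RPM in replicate 2 and 23.3 to 33.3 RPM in replicate 1. The mean of replicate 3 was 173-fold lower than that of replicate 2 and 53.9-fold lower than that of replicate 1. By a rule chosen after these values were seen, at least 8-fold lower in all 4 libraries than in the lowest of the other 8, SQLE was 1 of 70 genes (0.439%), and the only one of the 8 among them. Of its neighbours on chromosome 8, KIAA0196 had 64.6 to 68.3 RPM in the same libraries. ZNF572, on the other side, had 0.0625 to 0.392 RPM there from 3 to 21 reads, against 0.947 to 1.64 RPM in replicate 2 and 0.152 to 0.491 RPM in replicate 1. Leaving out replicate 3 of 1 group alone moved the change of SQLE between -0.88 and 1.04 for Nutlin-3a without peptide, and leaving it out of all groups gave 0.14.

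The experiments also differed in the level of the 8 genes, most of all for IDI1. Over all conditions IDI1 had 10.0 to 24.4 RPM in experiment 1 and 67.5 to 147 RPM in experiment 2, which do not overlap, while the ranges of the other 7 did. For INSIG1 and DHCR7 they overlapped only through the library that stood apart, at 11.7 and 72.2 RPM. The other libraries of experiment 1 reached 9.61 RPM for INSIG1 and 55.4 RPM for DHCR7, and those of experiment 2 began at 10.3 and 60.0 RPM. Outside the 8 genes, the epithelial marker EPCAM had 94.9 to 124 RPM in experiment 1 and 301 to 365 RPM in experiment 2. The ranges of the epithelial markers KRT8, KRT18 and CDH1 overlapped. The share of all genes whose ranges do not overlap was not counted. HMGCS1 averaged 50.5 ± 10.8 RPM in experiment 1 and 132 ± 55.7 RPM in experiment 2 (SD, n = 8 and 12), and LSS 54.8 ± 8.62 RPM and 50.5 ± 9.09 RPM. Per kilobase of row span, DHCR7 (4.80 ± 0.932 RPM per kb) and HMGCS1 (4.39 ± 0.939) were highest in experiment 1, followed by SREBF2 (2.14 ± 0.293), IDI1 (2.10 ± 0.458), SQLE (1.72 ± 0.275), INSIG1 (1.60 ± 0.353), LSS (1.42 ± 0.224) and FDFT1 (1.30 ± 0.121). The gap to the next gene was smaller than the larger SD of the pair, except between HMGCS1 and SREBF2. In experiment 2 the order was HMGCS1 (11.5 ± 4.84 RPM per kb), IDI1 (10.3 ± 3.26), DHCR7 (9.36 ± 2.90), INSIG1 (3.03 ± 0.602), SREBF2 (2.60 ± 0.412), FDFT1 (2.17 ± 0.699), SQLE (1.61 ± 1.61) and LSS (1.31 ± 0.236). There the gap between DHCR7 and INSIG1 was the only one above the larger SD.

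What the rows hold differs between the genes. On hg38 the row of SREBF2 covers chr22:41833079-41907308 and 100% of the GENCODE gene, with exons in 7.23% of it, so that most of its reads can come from introns. The row of HMGCS1 covers chr5:43287470-43298965, 39.7% of the gene, and starts 14547 bases inside it, with exons in 28.7%. The rows of DHCR7 (chr11:71434411-71444952) and INSIG1 (chr7:155297776-155302829) cover 42.7% and 40.6% of their genes, the row of IDI1 (chr10:1040024-1049003) 89.6% and that of LSS (chr21:46189124-46227630) 94.7%. SQLE (chr8:124998478-125021945) is covered to 98.6%. FDFT1 has another isoform in each table, from chr8:11808417-11838609 in experiment 1 and chr8:11807943-11838609 in experiment 2. Levels per kilobase of such rows mix exons and introns in unlike shares, so their order is that of these rows.

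Rows of other genes share sequence with members. MIR33A had a mean of 2.73 RPM, and its reads cannot be told apart from those of the SREBF2 precursor. Its row had 1.68 and 2.17 RPM in experiment 1 and 1.50, 3.17 and 3.33 RPM in experiment 2 with peptide and Nutlin-3a, against 2.41 and 4.45 RPM and 2.95, 3.61 and 2.94 RPM with water and Nutlin-3a, with a log2 change of -0.42 ± 0.20 (SE, limma adjusted p = 1). The 4.45 RPM was in the library that stood apart, and without it the change was -0.25. It was lower in 4 of the 5 same-numbered libraries. IDI2-AS1, on the strand opposite to IDI1, overlaps its row and had 70.7 to 88.4 RPM in replicate 1 of experiment 2, but 5.38 to 8.01 RPM in replicate 2, while IDI1 averaged 73.6 and 72.4 RPM there. Whether the counting used the strand is not given in the sources used here.

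Of the 27 other genes listed for the pathway, 19 were above 0 and 8 below with Nutlin-3a without peptide, with a median log2 change of 0.08 against -0.03 over all genes, and 0 were called (0.0% of all genes). At an unadjusted p under 0.05 there was 1, higher, with the experiment term and 5, all higher, with the replicate block. The shares of all genes in either direction were 0.627% and 7.64%. Of the 15958 genes, 67 were higher at that p with the experiment term and 498 with the replicate block. With the block and without the library that stood apart there were 11, all higher, against 13.5% of all genes in either direction. The median was then 0.12 against -0.01 over all genes, and 0 were called. The 6 uptake and transport genes had a median of 0.15, with 1 below 0, and NPC1, which exports cholesterol from lysosomes, had 0.17 ± 0.11 (SE, n = 5 per group). In the sterol steps HSD17B7 had 0.29 ± 0.27, while NSDHL had -0.11 ± 0.16. The regulators SREBF1 and SCAP had 0.13 ± 0.14 and 0.12 ± 0.15, which without the library that stood apart were -0.02 and 0.02. With the replicate block the unadjusted p was 0.00757 for HSD17B7 and 0.0448 for NPC1 (limma adjusted p = 0.582 and 0.649). With the block and without the library that stood apart their changes were 0.35 ± 0.09 and 0.21 ± 0.07 (SE, limma adjusted p = 0.204 and 0.241).

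In the peptide comparison with Nutlin-3a, 14 of the 27 genes were above 0 and 13 below, with a median of 0.02 against 0.04 over all genes, and 0 were called. Without the library that stood apart 12 were above 0 and 15 below, with a median of -0.04 against 0.01. At an unadjusted p under 0.05 there was 1, lower, with the experiment term and 2, both lower, with the replicate block. With the block and without that library there were 2, both lower. The shares of all genes in either direction were 0.483%, 8.15% and 11.1%. Of the 15958 genes, 44 were lower at that p with the experiment term and 558 with the replicate block. HSD17B7 and NPC1 had -0.06 ± 0.27 and -0.05 ± 0.11, or -0.12 and -0.09 without that library. ACAT2, a thiolase at the start of the pathway, had 0.17 ± 0.40 and INSIG2, a relative of INSIG1, 0.16 ± 0.26, but without that library they had 0.11 and -0.14. Of the 8 fatty acid synthesis genes, which SREBF1 mainly serves, 5 were above 0 with Nutlin-3a without peptide and 3 with peptide and Nutlin-3a (5 and 2 without that library). The desaturases FADS1 and FADS2 had 0.23 ± 0.16 and 0.26 ± 0.20 with Nutlin-3a, and -0.12 ± 0.16 and -0.17 ± 0.20 with peptide and Nutlin-3a. Without that library FADS2 had 0.15 and -0.06. Of the 6 LXR and export genes, the counterpart that lowers cholesterol, the exporters ABCG1 and ABCA1 had 0.12 ± 0.24 and 0.25 ± 0.60 with Nutlin-3a, and -0.29 ± 0.24 and -0.26 ± 0.60 with peptide and Nutlin-3a. The 6 genes of sterol-regulated protein turnover, such as the ubiquitin ligase RNF139, lay between -0.08 and 0.03 with Nutlin-3a, but without that library between -0.09 and 0.23, the highest being MARCH6 (limma unadjusted p = 0.0342). None of these genes was called.

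**Figure D4:**
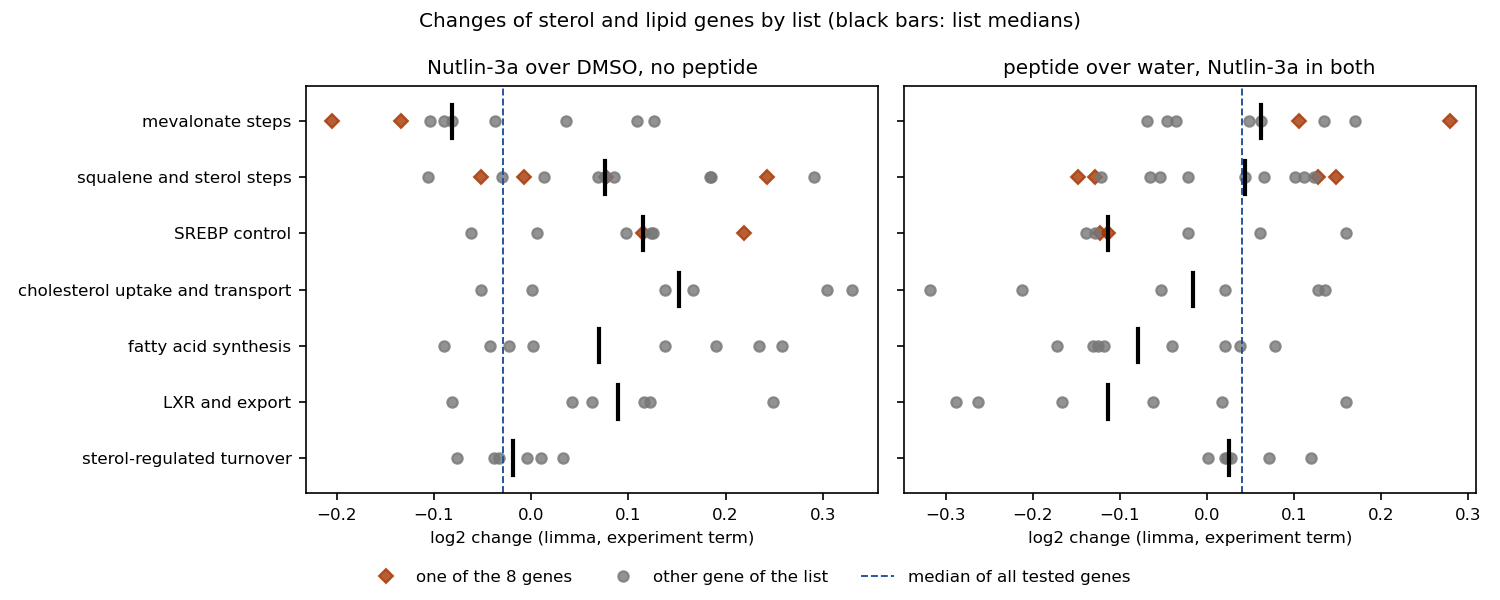
Log2 change (limma, experiment term) of each gene in the sterol and lipid lists, with the 8 genes as diamonds, list medians as black bars and the median of all 15958 genes tested as a dashed line. In the left panel the median is -0.08 for the mevalonate steps, whose genes run from -0.20 to 0.13, and 0.15 for the uptake genes. Without the library that stood apart these medians are -0.02 and 0.20, and no gene in either panel was called.

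Taken over all 20 libraries, the 1 that stood apart included, the 8 genes did not vary as 1 group. That library had some of them at the low end and others at the high end. No correlation given here was computed without it, so whether the genes varied together in the other libraries cannot be said. With each library taken as its deviation from the 4 of its number, the correlation of a gene with the mean of the other 7 over the 20 libraries ran from -0.41 for LSS to 0.52 for SQLE, as a description with no test, since same-numbered libraries share their mean and 7 of the genes share the library that stood apart. Among the 5 non-member rows most like the mean profile of the 8, of 11829 ranked, were BLOC1S5-TXNDC5 (r = 0.941) and TXNDC5 (0.938), which overlap each other, ICMT (0.908) and GDE1 (0.878).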

How the data were processed

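The values were used as the authors deposited them, 1 table per experiment with 26485 gene rows each. Per the submitters' processing notes the tools were HISAT2, bedtools and limma and the build hg38, with no versions or settings, and strand handling is not given in the sources used here. The authors' deposited signal per row is RPM divided by the stop coordinate minus the start coordinate over 1000, which is not a length. Multiplied back, columns sum to 1000000 and 100% of values became whole reads within 0.001 of a read. The design assumed another unit, so limma was used on log2 values made from these RPM.

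RPM were scaled by a trimmed mean of M values (30% of log ratios and 5% of abundances trimmed), and 0.5 was added before the log2, which understates changes of low genes. Genes averaging 0.5 RPM or more (15958) were tested with limma 3.58.1 in R 4.3.3, with a trend, a term for condition and 1 for experiment, and p-values adjusted by Benjamini and Hochberg over all of them. A call is an adjusted p under 0.05. limma-voom was run on the recovered reads as another setting. It called 0 genes in each comparison with the experiment term. The procedure was tested on simulated data that had no differences between replicate numbers and no library that stood apart. That test therefore does not show how large a change could be called in these libraries. Plots were drawn with Python 3.11.15 and matplotlib 3.10.9.

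Same-numbered libraries were taken as pairs from the data, since no label states it. Deviations from condition means correlated at 0.286 to 0.586 between same-numbered libraries of experiment 1 (12 pairs, where 2 replicates mirror each other) and 0.877 to 0.940 in experiment 2 (18 pairs).

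The 8 genes and all lists were chosen with earlier results of these data known. The named genes are the 8, CDKN1A, MDM2, rows overlapping a member, the 5 genes most like the members' mean, and from each list up to 3 with the smallest p in each of 2 comparisons, of which some are given by count only or not reported here. ABCA1, KIAA0196, ZNF572 and the comparison of replicate numbers were added after the data were seen. Counting intervals are not given, since the spread between libraries is larger.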

Additional observations from a re-analysis of the deposited data

How the results depend on the processing

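Of 953 values recomputed under other scalings, filters, pseudocounts, fits and left-out libraries, 938 were labelled the same, by a rule for each kind of value. A count of called genes had to stay at 0. A median of the 8 genes had to move by less than the SD of the pair medians, and 4 medians moved further. A single gene had to keep its call and turn sign by no more than its SE. With 0 genes called at the start, a kept call says little. The median of the 8 genes lay between -0.00 and 0.16 for Nutlin-3a without peptide and between -0.15 and 0.11 for peptide with Nutlin-3a, lowest without replicate 2 of Nutlin-3a with peptide in experiment 2. Counts of called genes, 0 in each comparison, stayed at 0 when each library was left out in turn (0 to 0). With the replicate block as well 0 genes were called in each comparison, so the block changed no call, although the genes at an unadjusted p under 0.05 numbered 1219 with it and 100 without it for Nutlin-3a without peptide. Blocked limma-voom, added after the data were seen, called 9 genes for Nutlin-3a without peptide, 7 for Nutlin-3a with peptide, 3 for peptide with Nutlin-3a and 4 for the interaction, and 0 of the 8 genes among them. The replicate block with the library that stood apart left out, also added later, called 5 genes for Nutlin-3a without peptide. In experiment 1 alone 1 gene was called for Nutlin-3a with peptide, 1 for peptide with Nutlin-3a and 1 for peptide without Nutlin-3a, and without the filter 1 for Nutlin-3a with peptide. The cause was not tested. FDFT1 turned to 0.14 for Nutlin-3a in experiment 1 alone, and HMGCS1 to -0.11 for peptide with Nutlin-3a with the block and without the library that stood apart. The depth of 16 to 33 reads for SQLE in replicate 3 of experiment 2 limits its values there. The number of libraries, 5 per condition, limits what the experiment term can call, and no interval given here shows that levels were the same.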
